A study of Mus musculus with 12 samples.

Results

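Neurexins, neuroligins and cerebellins are 3 protein families that join the presynaptic and postsynaptic sides of synapses, and 9 of their genes were followed in the cortex and cerebellum of SCA1 KI and WT mice. The genes were taken by symbol from the deposited table, 9 of its 15759 entries: the neurexins Nrxn2 and Nrxn3, the neuroligins Nlgn1, Nlgn2 and Nlgn3, and the cerebellins Cbln1, Cbln2, Cbln3 and Cbln4. All 9 had a mean of at least 10 normalized counts over the libraries and were tested in every comparison. In the cerebellum Cbln2 and Cbln4 were lower in SCA1 KI mice, and in the cortex Nrxn3 and Cbln4 were lower. Cbln1 and Cbln3, which were by far the most abundant cerebellins of the cerebellum, showed no difference between the genotypes that passed the test.

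Neurexins sit in the membrane of the presynaptic terminal and bind several classes of postsynaptic partner. Neuroligins are their classical postsynaptic receptors, of which Nlgn1 is found mainly at excitatory synapses, Nlgn2 mainly at inhibitory synapses and Nlgn3 at both. Cerebellins are secreted proteins related to C1q that bridge neurexins to postsynaptic receptors, and Cbln1, made by granule cells, holds the synapses of their parallel fibres on Purkinje cells together.

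SCA1 KI mice model spinocerebellar ataxia type 1 and carry an Atxn1 allele with 154 glutamine repeats, driven by the gene's own regulatory elements, beside an allele with 2. They were compared with WT littermates, all C57BL/6J, untreated and 12 weeks old. Poly-adenylated RNA of whole macrodissected cortex or cerebellum was sequenced in 12 libraries, with 3 libraries per genotype and region. The labels name male mice, whereas the study's methods name males and females for its experiments as a whole. The cerebellar libraries belong to a data set that the study had published earlier, so that region and data set cannot be told apart. Libraries are named here by the letter or number of their column, which does not carry the replicate number of the labels, and p-values measure the spread between these libraries.

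Reads on genes numbered 29520855 to 51311309 per library. The summed normalized count of 10 markers of cortical excitatory neurons was 94029 to 96143 in the WT cortex and 20232 to 26449 in the WT cerebellum, and Gabra6, a defining gene of cerebellar granule cells, had 0 to 42.1 normalized counts in the cortex and 20711 to 32164 in the cerebellum, so both tissues carried their labelled markers. Several libraries stood apart. SCA1 KI cortex library A was the lowest of its group in 8 of the 9 genes. WT cerebellum library 2 was the lowest of its group in 6 of them. WT cortex library D had 42.1 normalized counts of Gabra6 and 28.5 of the Purkinje cell gene Pcp2. The other cortical libraries had at most 3.04 and 1.19. The granule cell marker Fat2 was also highest in library D, at 37.6. The cerebellar markers Ppp1r17 and Zic1 were highest in SCA1 KI cortex library F, at 30.6 and 1001, against 18.2 and 492 in library D. Whether library D held cerebellar RNA was not tested. WT cortex library B had 1298 normalized counts of the choroid plexus gene Ttr and 698 of the striatal gene Adora2a, where the next highest cortical libraries had 72.9 and 305. SCA1 KI cortex library F had 2171 of the interneuron gene Dlx1 and 46.0 of Gata3, against at most 1117 and 2.28 in the other cortical libraries. The other interneuron markers were mixed in library F. It was the highest cortical library for Gad2, Dlx5 and Adarb2, the lowest for Lhx6, Sst, Vip and Npy, and neither for Gad1. SCA1 KI cerebellum library 1 had 365 of Ttr, where the other cerebellar libraries had at least 17295.

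Values are normalized counts, that is reads divided by 1 size factor per library. The log2 fold change (LFC) sets SCA1 KI against WT, was fitted with limma on log2(normalized count + 1), and is given ± its standard error. A call needed an adjusted p below 0.05 together with an LFC of more than 0.25 in size. The plot of values by library shows all 9 genes.

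**Figure D1:**
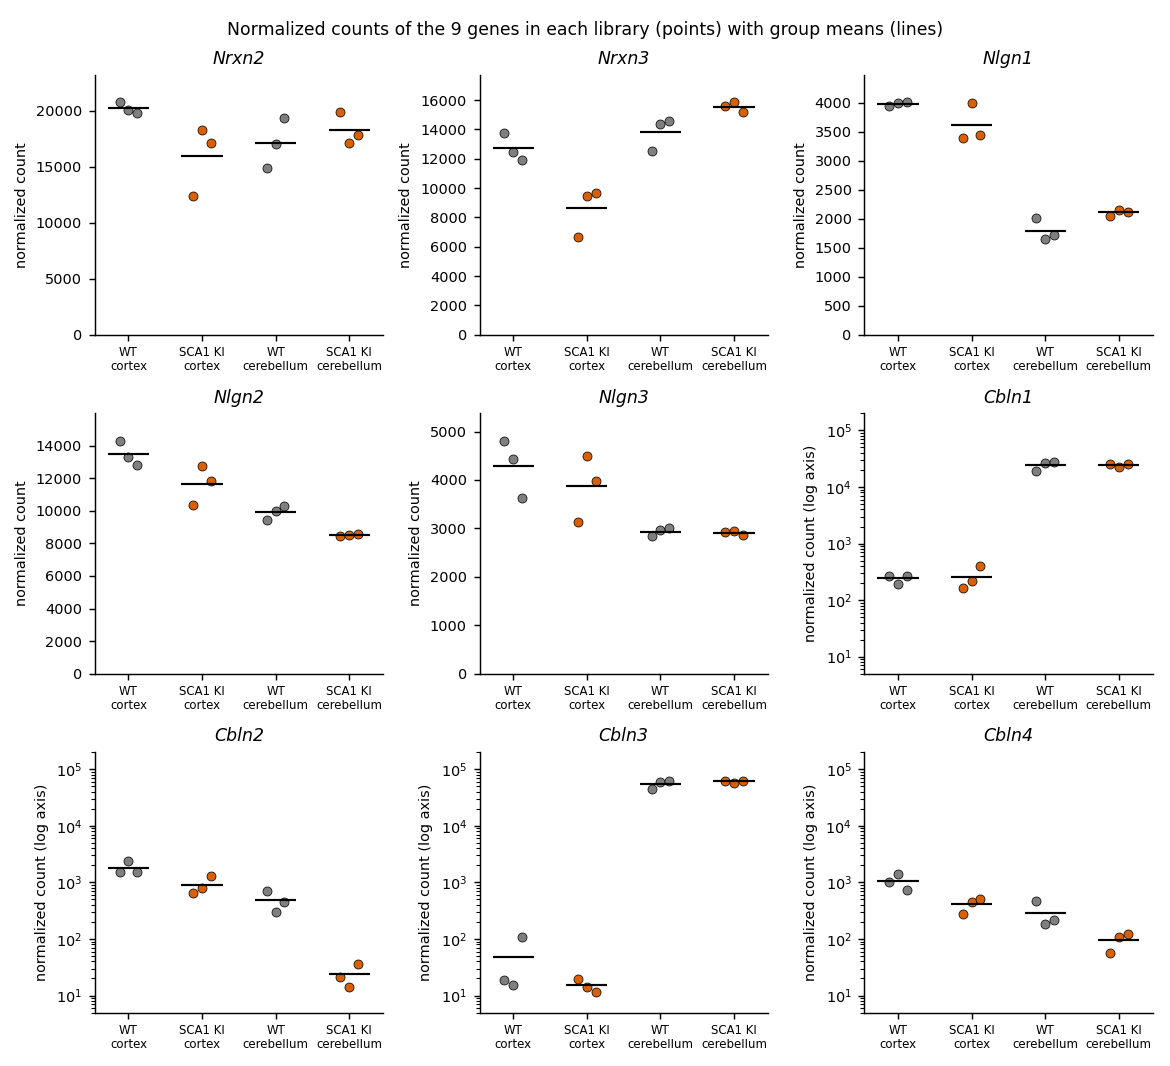
Normalized counts of the 9 genes (y axis, from 0 for neurexins and neuroligins, logarithmic for cerebellins) in each library (points) of the 4 groups of region and genotype (x axis), with the group mean as a line. Cbln1 and Cbln3 lie at 19365 or higher in every cerebellar library and at 395 or lower in every cortical library, and the highest SCA1 KI cerebellar library of Cbln2 has 36.8.

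The 2 regions of WT mice differed most in their cerebellins. Cbln1 had 19365, 26927 and 27978 normalized counts in WT cerebellum libraries 2, 4 and 6 and 269, 195 and 268 in WT cortex libraries B, C and D. Cbln3, which is secreted only together with Cbln1, had 45417, 60518 and 61333 in the WT cerebellum and 19.0, 15.5 and 108 in the WT cortex. Both genes were thus far higher in each cerebellar than in each cortical library, by 102-fold for Cbln1 and 1172-fold for Cbln3 in the ratio of the means. The highest cortical value of Cbln3 was that of library D, which also had the most Gabra6 and Pcp2 of the cortical libraries. It amounted to 0.194% of the WT cerebellar mean, against 0.159% for Gabra6 and 0.281% for Pcp2. The part of cerebellar RNA in the cortical level of Cbln3 was not tested. Cbln2 and Cbln4 had the opposite distribution and were higher in the WT cortex, by 1.95 ± 0.36 on the log2 scale for Cbln2 (adjusted p = 3.65e-04) and by 1.94 ± 0.38 for Cbln4 (adjusted p = 5.77e-04).

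The neuroligins were each higher in the WT cortex. The LFC of cortex against cerebellum was 1.15 ± 0.08 for Nlgn1 (adjusted p = 5.00e-08), 0.44 ± 0.07 for Nlgn2 (adjusted p = 1.36e-04) and 0.54 ± 0.12 for Nlgn3 (adjusted p = 0.00143). After the dependence of each library on transcript length and GC content was removed, that of Nlgn2 was 0.23, under the LFC limit. The neurexins did not pass, with 0.25 ± 0.13 for Nrxn2 (adjusted p = 0.104) and −0.12 ± 0.12 for Nrxn3 (adjusted p = 0.390). In all, 5 of the 9 genes were higher and 2 lower in the WT cortex, where 31% and 30.7% of the 15369 tested genes were called in these directions.

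Levels of different genes were compared per kilobase of exon, where the length counts every annotated exon base of a gene. For Nrxn2 this length was 13812 bases and the longest transcript 6667, and for Nlgn2 they were 5785 and 5568. The order below holds for this length only. With the longest transcript as the length, Nrxn2 stands above Nlgn2 in the WT cortex and in the WT cerebellum. Per kilobase of all exons, Nlgn2 came first in the WT cortex, at 2329 ± 126 normalized counts per kb (SD, n = 3). It was followed by Nrxn2 at 1462 ± 34.9, Nrxn3 at 1009 ± 72.9 and Cbln2 at 632 ± 169. The next neighbours in this order, Nlgn3, Cbln4 and Nlgn1, overlapped in their libraries, and Cbln1 and Cbln3 came last at 80.2 ± 13.9 and 9.77 ± 10.8. In the WT cerebellum the order began with Cbln3 at 11458 ± 1842 and Cbln1 at 8152 ± 1547, and Nlgn2 followed at 1712 ± 78.4. There the libraries of Nrxn2 and Nrxn3 overlapped, and so did those of Cbln2 with Nlgn1 and of Nlgn1 with Cbln4. In the SCA1 KI cerebellum Cbln2 was last at 8.32 ± 3.97, below every library of Cbln4.

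The plot of the make-up of the families per kilobase shows the same contrast within each library. Cbln2 and Cbln4 together made up most of the cortical cerebellin RNA, with a mean share of Cbln2 of 58.0% in the WT and 57.6% in the SCA1 KI cortex. The share of Cbln1 in the cortex was 4.63% to 9.75% in WT and 14.2% to 17.3% in SCA1 KI libraries, without overlap, while its normalized count overlapped between the genotypes. The sum of the cerebellins per kilobase was 903 to 1386 in the WT and 375 to 753 in the SCA1 KI cortex. In the cerebellum Cbln3 took 57.2% to 57.9% in WT and 60.1% to 61.9% in SCA1 KI libraries.

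**Figure D2:**
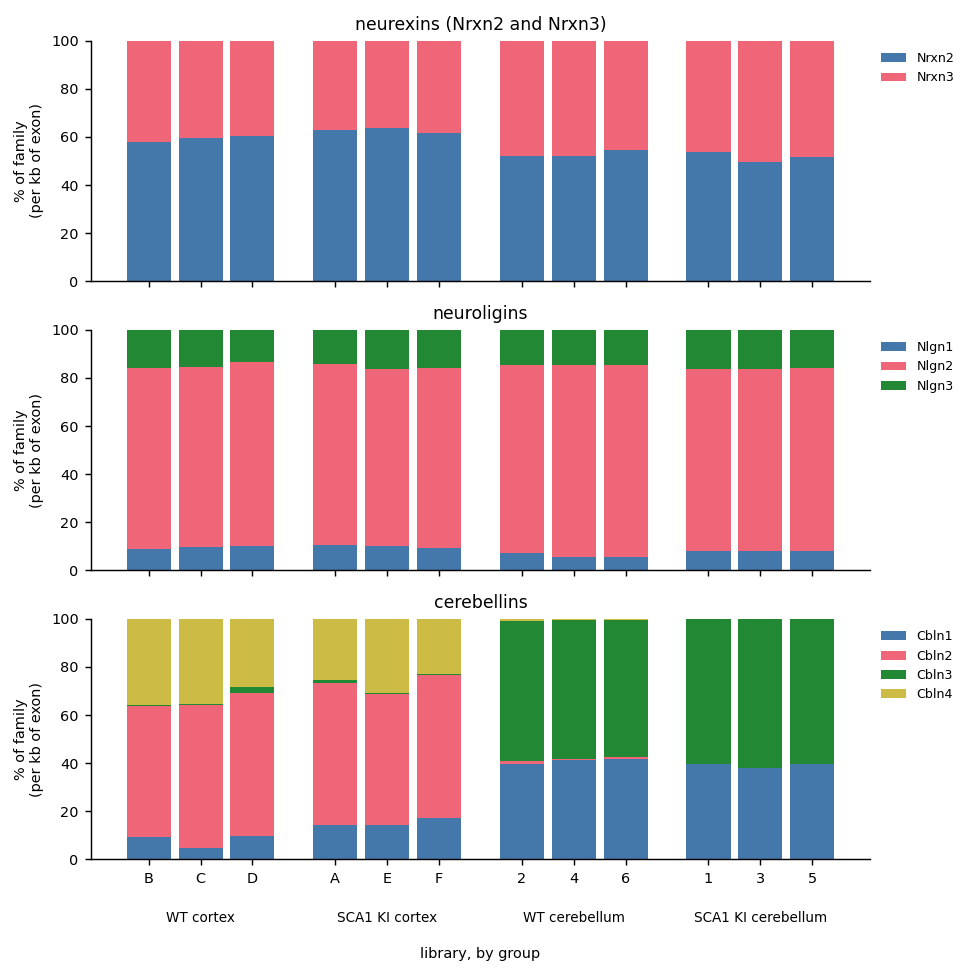
Share of each gene in the summed normalized count per kilobase of exon of its family (y axis, percent) in each library (x axis, grouped by region and genotype). Nlgn2 makes up 73.8% to 79.8% of the neuroligins in every library, and the cerebellins change from Cbln2 and Cbln4 in the cortex to Cbln1 and Cbln3 in the cerebellum.

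To show the upstream sequence of an abundant cerebellar and of a mainly cortical cerebellin side by side, the bases before the RefSeq start (GRCm38.p6) of Cbln3 and Cbln4 are printed 5′ to 3′. That of Cbln3 is chr14:55884393-55884506 (minus strand), cut to the 114 bases that lie outside its first annotated exon. That of Cbln4 is chr2:172043467-172043716 (minus strand), 250 bases.
Cbln3: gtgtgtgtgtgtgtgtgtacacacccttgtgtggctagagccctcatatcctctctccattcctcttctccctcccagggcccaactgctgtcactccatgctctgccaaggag
Cbln4: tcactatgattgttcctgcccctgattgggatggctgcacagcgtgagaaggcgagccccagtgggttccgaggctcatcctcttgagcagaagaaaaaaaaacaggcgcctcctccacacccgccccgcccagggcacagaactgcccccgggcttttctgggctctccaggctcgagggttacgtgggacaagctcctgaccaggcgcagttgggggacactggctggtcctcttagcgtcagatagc
Cbln3 lies on chromosome 14 from 55878913 to 55884392 and Cbln4 on chromosome 2 from 172036233 to 172043466 (GENCODE vM21, GRCm38), and neither shares exon bases with another gene. The Cbln4 window is 60.8% G or C and the Cbln3 stretch 56.1%. Neither holds, on either strand, the E-box letters CATCTG or CAGCTG, which occur in 25.5% of 32851 RefSeq windows of 250 bases, nor the octamers TGAATGAA, TGAATGGA, TCAATGAA or TCAATGGA bound by the ataxin-1 partner Capicua, of which at least 1 occurs in 3.19% of the windows. Windows were found for 5 of the 9 genes: Nrxn3, Nlgn1, Nlgn2, Cbln3 and Cbln4.

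In the cortex, where the question was which genes differ in a region outside the cerebellum, 2 of the 9 genes were lower in SCA1 KI mice (Nrxn3 and Cbln4) and none was higher. Of all tested genes 10.8% were lower and 4.82% higher, that is 1661 and 741 genes, and with the dependence on transcript length and GC content removed these were 1311 and 1029 of 14644. 5 genes had all 3 SCA1 KI libraries below all 3 WT libraries (Nrxn2, Nrxn3, Nlgn2, Cbln2 and Cbln4), against 18% of all genes, and none had them above, against 13%. The median LFC of the 9 genes was −0.36, and that of all tested genes was −0.0028. This median was the LFC of Nrxn2, which was −0.12 with the dependence on length and GC content removed. That of Nlgn2 was then −0.0096, while Nrxn3, Cbln2 and Cbln4 were called lower.

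Nrxn3 had 13738, 12480 and 11949 normalized counts in WT cortex libraries B, C and D and 6672, 9486 and 9697 in SCA1 KI cortex libraries A, E and F. Every SCA1 KI library was below every WT library, and library A was the lowest. The LFC was −0.58 ± 0.12 (adjusted p = 0.00495), or 1.48-fold lower by the means. It remained past the threshold in each of the 12 fits that left out a library and was −0.41 without library A. In the cerebellum Nrxn3 had 12531, 14385 and 14594 in WT and 15592, 15845 and 15180 in SCA1 KI libraries. There the SCA1 KI libraries were all above the WT libraries, but the LFC of 0.17 ± 0.12 did not pass (adjusted p = 0.531). The LFC of Nrxn3 differed between the regions by −0.75 ± 0.17 (cortex minus cerebellum, adjusted p = 0.0160). Nrxn3 was 1 of 2 genes of the 9, with Cbln2, for which this difference passed, where 8.15% of all tested genes passed in either direction.

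The bases before an annotated start of a Nrxn3 transcript are shown because they hold the Capicua octamer TCAATGGA, in capitals, on the strand opposite to the gene. The 250 bases (chr12:88794254-88794503, plus strand, RefSeq, GRCm38.p6) begin 71378 bases inside the annotated gene, which lies on chromosome 12 from 88722876 to 90334935, and directly precede an annotated exon.
Nrxn3: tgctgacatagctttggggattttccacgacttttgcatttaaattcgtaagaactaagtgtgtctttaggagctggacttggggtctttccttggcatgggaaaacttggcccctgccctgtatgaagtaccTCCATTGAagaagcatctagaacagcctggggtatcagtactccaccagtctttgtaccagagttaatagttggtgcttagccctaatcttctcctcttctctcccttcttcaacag
The match begins 117 bases before this annotated start and is a description of letters, not of binding. The stretch ends in a run rich in c and t followed by cag, as the end of an intron does. Whether transcription starts there was not tested. The other Nrxn3 windows, and those of Nlgn1, held none of these octamers, and the Nlgn2 window held an E-box CAGCTG 240 bases before its start.

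Nrxn2, the other neurexin, had 20734, 20064 and 19800 normalized counts in the WT and 12397, 18294 and 17118 in the SCA1 KI cortex. The SCA1 KI libraries lay below the WT libraries and library A stood far below the rest. The LFC of −0.36 ± 0.13 did not pass (adjusted p = 0.0723), and it was −0.12 with the dependence on length and GC content removed and −0.19 without library A. Nrxn2 passed with DESeq2 (adjusted p = 0.0490) and in 1 of the 12 limma fits that left out a library (adjusted p = 0.0305). Within each cortical library there were 0.603 to 0.663 Nrxn3 reads per Nrxn2 read in WT and 0.519 to 0.566 in SCA1 KI mice, a ratio that does not depend on the scaling of the library and did not overlap between the genotypes. The ratio was not corrected for length or GC content. In the cerebellum this ratio was 0.755 to 0.844 in WT and 0.784 to 0.927 in SCA1 KI libraries and overlapped. The LFC of Nrxn2 in the cerebellum was 0.10 ± 0.13 (adjusted p = 0.772).

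The neuroligins passed in neither region. Nlgn2, on chromosome 11 from 69823122 to 69837784, had 14269, 13309 and 12840 normalized counts in the WT and 10366, 12770 and 11835 in the SCA1 KI cortex. In the cerebellum it had 9416, 9976 and 10313 in WT and 8473, 8532 and 8566 in SCA1 KI libraries. In both regions all SCA1 KI libraries were below all WT libraries, with an LFC of −0.21 ± 0.07 (adjusted p = 0.0637) in the cortex and of −0.22 ± 0.07 (adjusted p = 0.123) in the cerebellum. Neither reached the limit of 0.25. Both shrank once the dependence on length and GC content was removed, to −0.0096 in the cortex and −0.10 in the cerebellum.

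Nlgn1 had 2020, 1647 and 1719 normalized counts in the WT cerebellum and 2050, 2157 and 2122 in the SCA1 KI cerebellum. The SCA1 KI libraries were all above the WT libraries, the nearest pair being WT library 2 and SCA1 KI library 1, and the LFC was 0.24 ± 0.08 (adjusted p = 0.125). Without WT library 2 the LFC was 0.33 and passed (adjusted p = 0.0290). In the cortex its libraries overlapped, at 3945, 3987 and 4003 in WT and 3388, 3998 and 3439 in SCA1 KI mice, with an LFC of −0.14 ± 0.08 (adjusted p = 0.252). The difference between the regions was −0.38 ± 0.11 (adjusted p = 0.0594). Nlgn3 overlapped in both regions, at 4798, 4438 and 3620 in the WT and 3131, 4491 and 3976 in the SCA1 KI cortex and between 2835 and 2999 in all cerebellar libraries. Its LFC was −0.15 ± 0.12 (adjusted p = 0.419) in the cortex and −0.01 ± 0.12 (adjusted p = 0.980) in the cerebellum. The transcript Gm21986 covers 41.2% of the exon bases of Nlgn3 on the same strand, so the counts of Nlgn3 could include or lack reads of it. Nrxn2, Nrxn3 and Nlgn1 overlap exons of genes on the opposite strand over 9.16% of their exon bases at most per gene, and the use of strand in counting was not given in the sources used here.

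In the cerebellum, 2 of the 9 genes were lower in SCA1 KI mice (Cbln2 and Cbln4), where 4.44% of all tested genes were lower, and none was higher, where 0.917% were. These shares stand for 683 and 141 genes, which became 588 and 540 with the dependence on transcript length and GC content removed. Cbln2, Cbln4 and Nlgn2 had all SCA1 KI libraries below all WT libraries, against 17.5% of all genes, and Nrxn3 and Nlgn1 had them above, against 14.3%. The median LFC of the 9 genes was 0.0013, and that of all tested genes −0.0049.

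**Figure D3:**
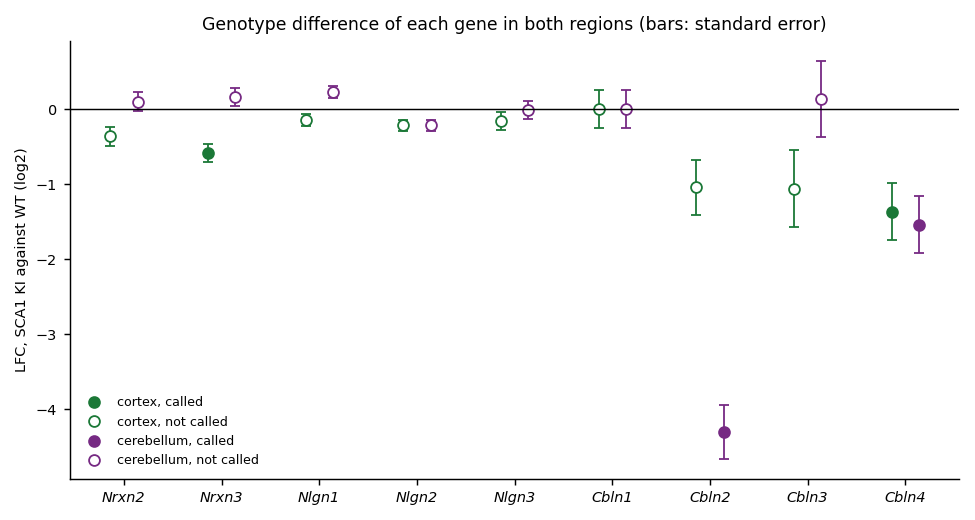
LFC of SCA1 KI against WT (y axis, log2 scale) of each of the 9 genes (x axis) in the cortex (green) and cerebellum (purple), with the standard error as bars. Filled points passed the adjusted p and the LFC limit: Nrxn3 in the cortex, Cbln2 in the cerebellum and Cbln4 in both.

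Cbln2, a cerebellin of forebrain and brainstem neurons, had 708, 305 and 454 normalized counts in WT cerebellum libraries 2, 4 and 6 and 21.1, 14.4 and 36.8 in SCA1 KI libraries 1, 3 and 5. Even the lowest WT library was far above the highest SCA1 KI library, and the ratio of the means was 20.3. The LFC was −4.30 ± 0.36 (adjusted p = 2.64e-05). It passed in all 12 settings of pseudocount, filter, scaling, limit and tool, and in all 12 fits that left out a library, between −4.65 and −3.99. In the cortex Cbln2 had 1536, 2392 and 1555 in WT and 643, 785 and 1297 in SCA1 KI libraries, without overlap. There the LFC of −1.04 ± 0.36 did not pass (adjusted p = 0.0667), but passed with edgeR (−0.99, adjusted p = 0.0399) and with the cortex fitted on its own (adjusted p = 0.0317). The LFC of Cbln2 was larger in size in the cerebellum, by 3.26 ± 0.51 (adjusted p = 0.00220).

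Cbln4, a cerebellin that binds the netrin receptors DCC and neogenin besides neurexins, had 473, 181 and 220 normalized counts in the WT and 56.4, 106 and 125 in the SCA1 KI cerebellum. The groups did not overlap, and the LFC was −1.54 ± 0.38 (adjusted p = 0.0332), or 3.04-fold lower by the means. In the cortex it had 1004, 1429 and 741 in WT and 277, 447 and 500 in SCA1 KI libraries, again without overlap, with an LFC of −1.37 ± 0.38 (adjusted p = 0.0261). The LFC did not differ between the regions beyond its error (0.17 ± 0.54, adjusted p = 0.892). Both calls depended on the libraries included, while the LFC stayed between −1.60 and −1.11 in the cortex and between −1.82 and −1.12 in the cerebellum over the fits that left out a library. The cortical call was lost without WT library B (−1.38, adjusted p = 0.0608), WT library C (−1.12, adjusted p = 0.112) or SCA1 KI library A (−1.11, adjusted p = 0.0952). The cerebellar call was lost without WT library 2 (−1.12, adjusted p = 0.127), WT library 6 (−1.67, adjusted p = 0.0600), SCA1 KI library 1 (−1.20, adjusted p = 0.154) or SCA1 KI library 3 (−1.65, adjusted p = 0.0740).

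Genes of neurons outside the cerebellar cortex moved with Cbln2 and Cbln4 in the cerebellar libraries. Of 10 midbrain markers 7 were lower in the SCA1 KI cerebellum, with a median LFC of −3.49 over the list. Of all tested genes 4.44% were lower there, a share to set beside each count of markers in this paragraph. Pou4f1 had 139, 46.4 and 83.9 normalized counts in WT libraries 2, 4 and 6 and 2.53, 6.87 and 10.6 in SCA1 KI libraries 1, 3 and 5. Gata3 had 157, 48.9 and 95.5 in WT and 2.53, 2.75 and 12.6 in SCA1 KI libraries. Within the WT cerebellum Cbln2, Cbln4, Pou4f1, Gata3 and the vesicular glutamate transporter Slc17a6 were all highest in library 2, then in library 6, then in library 4. Of the thalamus markers Tcf7l2 also had this order, but Prkcd and Lef1 did not. Prkcd had 2622, 2563 and 2670 normalized counts in WT libraries 2, 4 and 6, and Lef1 had 355, 303 and 274. The summed midbrain list overlapped, at 3071 to 3302 in WT and 2723 to 3091 in SCA1 KI libraries. Most of this sum came from Barhl2 and Otx2, named after their values were seen, which had 1199 to 2014 and 571 to 812 normalized counts in the cerebellar libraries and were not called. In the cerebellum no midbrain marker was at 0 except Shox2 in SCA1 KI library 3. Of 8 thalamus markers 4 were lower, with a sum of 9437 to 14425 in WT and 5635 to 5936 in SCA1 KI libraries. Slc17a6, from that list, had 6803, 2878 and 3911 in WT and 982, 1117 and 1310 in SCA1 KI libraries. Other lists moved as well. The sum of 6 oligodendrocyte markers, none of which was called, was 178046 to 266831 in WT and 152414 to 152494 in SCA1 KI libraries, and that of 10 Purkinje cell markers, 3 of which were lower, was 368437 to 459170 and 324019 to 362498. Among 9 interneuron markers 3 were lower, and Sst had 864, 368 and 528 in WT and 56.4, 41.2 and 72.6 in SCA1 KI libraries. The part of such tissue or cells in the cerebellar results of Cbln2 and Cbln4 was not tested. In bulk tissue fewer cells of a type and less RNA per cell cannot be told apart.

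**Figure D4:**
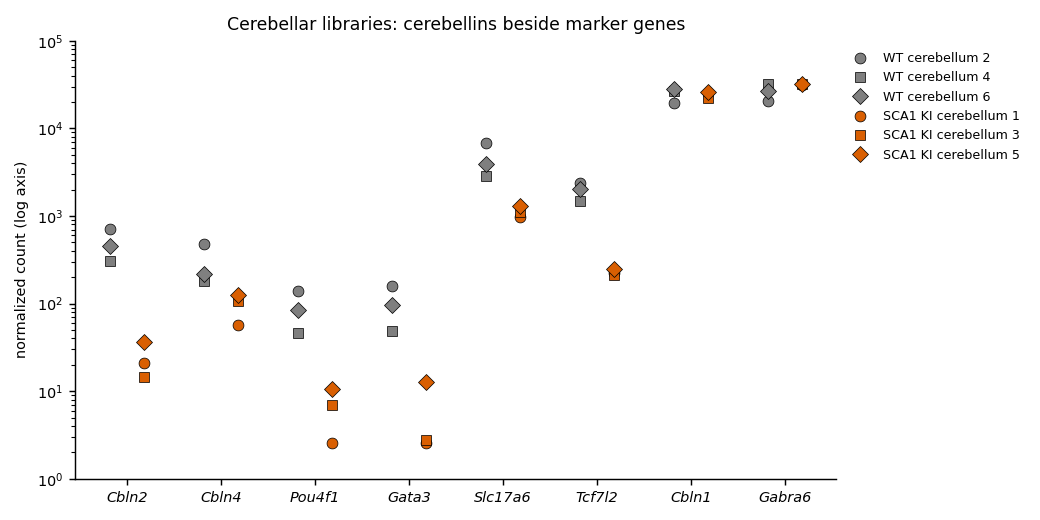
Normalized counts (y axis, logarithmic) of Cbln2, Cbln4, 4 marker genes of midbrain or thalamus, Cbln1 and the granule cell gene Gabra6 in the 6 cerebellar libraries, WT in grey and SCA1 KI in orange, with a symbol per library. WT library 2 (grey circle) is the highest of its group for Cbln2, Cbln4, Pou4f1, Gata3, Slc17a6 and Tcf7l2 and the lowest for Cbln1 and Gabra6.

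Cbln1 and Cbln3, the granule cell cerebellins, did not pass the test between the genotypes in the cerebellum. Cbln1 had 19365, 26927 and 27978 normalized counts in WT and 25424, 22142 and 25989 in SCA1 KI libraries, which overlapped, and its LFC was 0.0013 ± 0.25 (adjusted p = 0.999). Cbln3 had 45417, 60518 and 61333 in WT and 61795, 57970 and 63027 in SCA1 KI libraries, with an LFC of 0.14 ± 0.51 (adjusted p = 0.935). For both genes WT library 2 was the lowest of its group, and this library also had the lowest sum of 10 granule cell markers, 127201, where the WT group reached 184795 and the SCA1 KI group had 186157 to 191001. Without library 2 the LFC of Cbln3 was −0.00076. The part of granule cell content in the values of Cbln1 and Cbln3 was not tested. The standard error of Cbln3 is shared by all groups of the fit, and its coefficient of variation was 16.1% in the WT and 4.33% in the SCA1 KI cerebellum but 110% in the WT cortex.

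In the cortex, Cbln1 overlapped between the genotypes at 162 to 395 normalized counts (LFC 0.0027 ± 0.25, adjusted p = 0.996). Cbln3 had an LFC of −1.06 ± 0.51 (adjusted p = 0.184), which rested on WT library D and was −0.20 without it. Marker lists also moved in the cortex. The sum of 10 excitatory neuron markers was 63895 to 76378 in SCA1 KI libraries, below every WT library, and 3 of them were called lower. Of 9 interneuron markers 2 were lower, with sums of 25444 to 35005 in SCA1 KI and 35443 to 37808 in WT libraries. Of 10 midbrain markers 3 were higher, with sums of 1043 to 1721 in SCA1 KI and 339 to 436 in WT libraries, where Pou4f2, Shox2 and Sox14 were at 0 in every WT library. Of 6 astrocyte markers 4 were lower, with sums of 33378 to 40375 in SCA1 KI and 46901 to 53798 in WT libraries. Of 7 hippocampus markers 1 was lower, with sums of 2281 to 3667 in SCA1 KI and 4783 to 6327 in WT libraries. Over all tested genes 10.8% were lower and 4.82% higher in the cortex, and the count of hippocampus markers called is near that share. The part of these lists in the cortical results of Nrxn3 and Cbln4 was not tested.

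The receptors of the cerebellins were examined next, from a list of 55 partner genes by role, of which 54 could be tested. Grid1, a glutamate delta receptor, had 1351, 1041 and 1228 normalized counts in the WT and 987, 978 and 957 in the SCA1 KI cerebellum. The SCA1 KI libraries lay below the WT libraries. Its LFC did not pass in either region: the groups differed by −0.30 ± 0.09 (adjusted p = 0.0810) in the cerebellum and by −0.09 ± 0.09 (adjusted p = 0.540) in the cortex.

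Dcc, a netrin receptor that binds Cbln4, was lower in the SCA1 KI cerebellum, with 618, 346 and 499 normalized counts in WT and 254, 258 and 239 in SCA1 KI libraries (LFC −0.92 ± 0.20, adjusted p = 0.0174). All SCA1 KI libraries were below all WT libraries, and WT library 2 was again the highest. The call was lost without WT library 2 (−0.73, adjusted p = 0.0697), WT library 6 or any of the 3 SCA1 KI libraries, with an LFC of −0.94 to −0.73 in these fits. In the cortex the LFC of Dcc was 0.21 ± 0.20 (adjusted p = 0.523). Neogenin, encoded by Neo1, differed by 0.06 ± 0.06 (adjusted p = 0.593) in the cortex and by 0.05 ± 0.06 (adjusted p = 0.754) in the cerebellum.

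Among the C1q-like proteins, which resemble cerebellins and bind the adhesion receptor Adgrb3, C1ql3 was lower in the SCA1 KI cerebellum, with 1557, 1451 and 1360 in WT and 974, 1024 and 1075 in SCA1 KI libraries (LFC −0.51 ± 0.11, adjusted p = 0.0147). Its libraries did not overlap there, but the call was lost without WT library 2 or SCA1 KI library 1 or 3 (adjusted p = 0.0545 to 0.0725). C1ql3 shares 61.0% of its exon bases with a transcript on the opposite strand. C1ql1, the climbing fibre ligand, had a cortical LFC of −0.27 (adjusted p = 0.394) and a cerebellar one of −0.26 (adjusted p = 0.587). Those of C1ql2 were −0.21 (adjusted p = 0.783) and −0.85 (adjusted p = 0.340). C1ql4 was not tested and had 0 to 9.01 normalized counts in the cortex and 0 to 43.8 in the cerebellum, the highest in WT library 2. Those of Adgrb3 itself were 0.11 ± 0.06 (adjusted p = 0.216) and 0.09 ± 0.06 (adjusted p = 0.475).

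Of the 54 tested partner genes, 15 were lower and 1 higher in the SCA1 KI cortex, and 6 were lower and 1 higher in the cerebellum. The shares over all tested genes were 10.8% lower and 4.82% higher in the cortex and 4.44% lower and 0.917% higher in the cerebellum. The lists were chosen with earlier results of these data known, so a count above these shares can follow in part from that choice. The median LFC of the list was −0.20 in the cortex and −0.03 in the cerebellum. Of 15 other neurexin ligands 3 were lower in the cortex and 4 in the cerebellum. In the cortex these included the calsyntenin Clstn1, with 81088, 78424 and 70792 normalized counts in WT and 53106, 62537 and 54403 in SCA1 KI libraries (LFC −0.44 ± 0.07, adjusted p = 0.00152), and the latrophilin Adgrl1 (LFC −0.52 ± 0.10, adjusted p = 0.00383), whose LFC was −0.27 with the dependence on length and GC content removed. In the cerebellum they included Clstn2, with 2681, 3134 and 3087 in WT and 1647, 1544 and 1456 in SCA1 KI libraries (LFC −0.94 ± 0.11, adjusted p = 2.36e-04), and the leucine-rich repeat ligand Lrrtm4 (LFC −0.98 ± 0.13, adjusted p = 7.17e-04). In the region named, each of these 4 genes had every SCA1 KI library below every WT library. Lrrtm4 and Adgrl1 share 25.1% and 12.9% of their exon bases with a gene on the opposite strand.

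Of 8 neuroligin regulators and scaffolds, 3 were lower in the cortex and none in the cerebellum, where 3 had an unadjusted p under 0.05. Of all tested genes 10.8% were lower and 4.82% higher in the cortex, and 4.44% were lower in the cerebellum. Dlg4, the excitatory scaffold PSD-95, had 38101, 35743 and 37648 normalized counts in the WT and 24350, 28127 and 25414 in the SCA1 KI cortex (LFC −0.52 ± 0.06, adjusted p = 1.23e-04). Of 7 intracellular neurexin partners 1, the adaptor Apba2, was lower in the cortex (LFC −0.38 ± 0.07, adjusted p = 0.00306), a count near the share of all tested genes. Of 3 regulators of neurexin splicing Khdrbs2 was higher in the cortex, with 214, 250 and 219 in WT and 347, 283 and 277 in SCA1 KI libraries (LFC 0.40 ± 0.12, adjusted p = 0.0292). This call was lost without WT library B or D or SCA1 KI library A (adjusted p = 0.0738 to 0.100). Splicing itself cannot be read from gene counts.

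The LAR-type receptor phosphatases and their ligands form a parallel system of synaptic adhesion. The list of 13 genes for this system also holds Lrrc4 and Lrrc4c, relatives of the ligand Lrrc4b that are not counted as ligands themselves. Of the 13, 8 were lower in the cortex, Lrrc4 and Lrrc4c among them. In the cerebellum none was lower and 1 was higher, where 0.917% of all tested genes were higher. Ptprd, a receptor phosphatase, had 15992, 14588 and 13876 normalized counts in the WT and 10506, 12149 and 10596 in the SCA1 KI cortex (LFC −0.42 ± 0.07, adjusted p = 0.00112). Lrrc4 had 6077, 6179 and 5757 in WT and 4373, 4583 and 3825 in SCA1 KI libraries there (LFC −0.50 ± 0.08, adjusted p = 0.00108). In the cerebellum Slitrk2 was higher, with 1820, 1759 and 1859 in WT and 2476, 2491 and 2549 in SCA1 KI libraries (LFC 0.47 ± 0.10, adjusted p = 0.0151), a call that was lost without any of the 3 SCA1 KI libraries (adjusted p = 0.0554 to 0.0603). None of these values overlapped between the genotypes. The median LFC of the 13 genes was −0.32 in the cortex and 0.13 in the cerebellum, and the LFC of 6 of the 13 differed between the regions, where 8.15% of all tested genes did. With 10.8% of all genes lower in the cortex and 4.44% in the cerebellum, none lower of 13 in the cerebellum is close to the share of all genes.

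**Figure D5:**
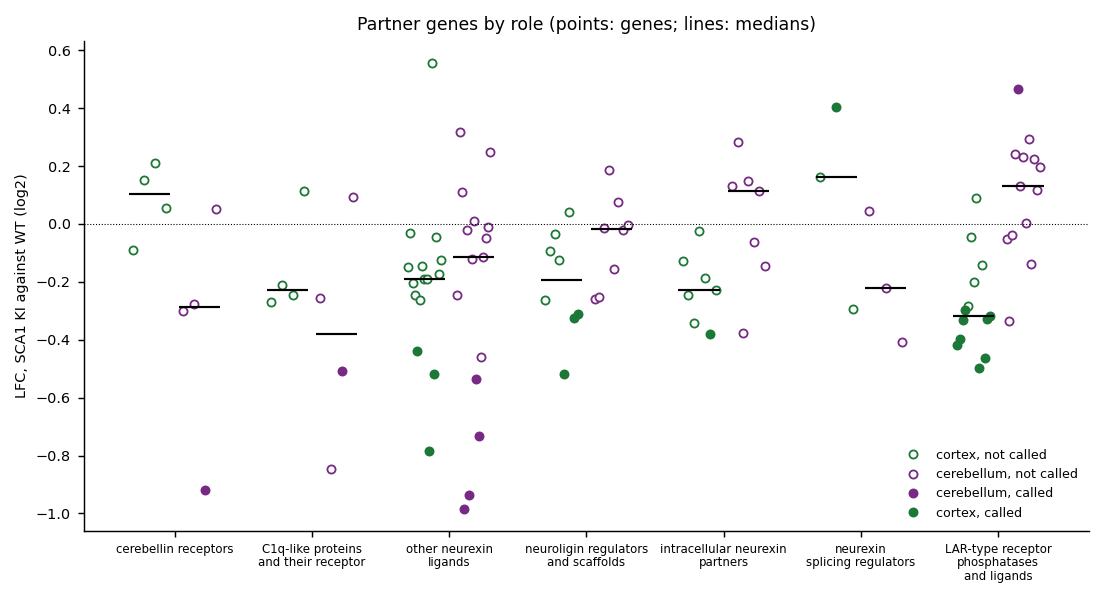
LFC of SCA1 KI against WT (y axis, log2 scale) of the 54 tested partner genes by role (x axis) in the cortex (green) and cerebellum (purple), with the median of each role as a line. Filled points were called. In the LAR-type list 8 of the 13 genes are filled below 0 in the cortex and 1 is filled above 0 in the cerebellum.

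For each of the 9 genes, the genes most like it were sought by Pearson's r over the 12 libraries after the mean of each region was subtracted. All points of such a correlation share libraries and genotypes, so it is a description. The genotype difference enters the correlation. The LFC and adjusted p of the genes found thus follow in part from how they were picked and are no separate support. For Cbln2 they were Cpne5 (r = 0.986) and Crhbp, which binds corticotropin-releasing hormone (r = 0.984). Both were lower in the SCA1 KI cerebellum, by −4.21 for Cpne5 (adjusted p = 2.64e-05) and −3.93 for Crhbp (adjusted p = 1.17e-06). For Nrxn3 they were the secreted protein gene Reln (r = 0.981) and Stxbp5l (r = 0.981), both lower in the SCA1 KI cortex, with an LFC of −0.81 for Reln (adjusted p = 0.00590) and of −0.50 for Stxbp5l (adjusted p = 0.00504). For Cbln4 they were 2210408F21Rik (r = 0.973) and Sema4a (r = 0.960), which were lower in both regions. For Nlgn2 they were Gpr63 (r = 0.988) and the postsynaptic scaffold Shank2 (r = 0.976), both lower in the cortex.
The remaining pairs were Mcc and Grin2c for Nrxn2, Cadm2 and Rab11fip2 for Nlgn1, Ankrd52 and Tbck for Nlgn3, Abca1 and Hist1h4k for Cbln1, and Nppc and Rps6ka4 for Cbln3, with r between 0.865 and 0.981.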

How the data were processed

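Poly-adenylated RNA was sequenced as paired ends, and the deposited table holds the authors' normalized counts per gene and library. Per the submitters' processing notes, reads were aligned to mm10 with STAR, counted with featureCounts and normalized with DESeq2 (versions of these runs not given in the sources used here). The deposited unit is thus a signal: the reads on a gene over the size factor of its library. All values (100%) gave whole reads within a tolerance of 0.01, and these reads served the count tests. Group membership was read from the column names.

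All 12 libraries were fitted together with limma 3.58.1 in R 4.3.3 on log2(normalized count + 1), with a mean for each of the 4 groups and moderated variances that follow mean expression, over the 15369 of 15759 entries with a mean of at least 10. On this scale the changes of low genes come out too small. Adjusted p are Benjamini-Hochberg values over all tested genes. The comparisons were SCA1 KI against WT in each region, the difference of these LFC, and WT cortex against WT cerebellum. The method was tested on simulated data.

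The members and lists were chosen with earlier results of these data known, so counts above the shares of all genes can follow in part from that choice. Named were all 9 genes, every cerebellin receptor and C1q-like gene, the 2 called genes of smallest p in each region of the other roles, and the 2 genes most correlated with each of the 9; some genes that this rule takes are counted in their groups but not reported here. Alternatives were a pseudocount of 0.5 or 5, tests without the filter or above a mean of 100, separate fits per region, median centring, regressing out transcript length and GC content within libraries, edgeR 4.0.16 and DESeq2 1.42.0 on recovered reads, no LFC limit or a limit of 1, and leaving out each library. Coordinates are from GENCODE vM21 (GRCm38). 5 listed symbols of the partner and marker lists were matched through older RefSeq synonyms.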

Additional observations from a re-analysis of the deposited data

Results flagged for a closer look

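With 3 libraries in a group, single libraries were not tested as outliers. The LFC of SCA1 KI against WT differed between the regions (cortex minus cerebellum, limma) for 12 of the named genes. Among the members these were Nrxn3 (−0.75 ± 0.17, adjusted p = 0.0160) and Cbln2 (3.26 ± 0.51, adjusted p = 0.00220). Among the receptors of the cerebellins it was Dcc (1.13 ± 0.28, adjusted p = 0.0276). Among other neurexin ligands the difference was 0.74 for Lrrtm4, 0.67 for Clstn2 and −0.42 for Clstn1. Among scaffolds, adaptors and splicing regulators it was −0.37 for Dlg4, −0.49 for Apba2 and 0.62 for Khdrbs2. In the LAR-type list it was −0.37 for Ptprd, −0.75 for Slitrk2 and −0.79 for Lrrc4. Several of these calls depended on the libraries included. The call held in only 3 of the 12 fits that left out a library for Dcc (without WT cortex B, SCA1 KI cortex A or WT cerebellum 4), for Clstn1 (without WT cortex D, SCA1 KI cortex E or WT cerebellum 6) and for Ptprd (without WT cortex D, SCA1 KI cortex E or WT cerebellum 2). It held in 4 for Khdrbs2 (without WT cortex C, SCA1 KI cortex E or F, or WT cerebellum 4). It held in 6 for Lrrtm4, being lost without WT cortex C, SCA1 KI cortex E, WT cerebellum 6 or any SCA1 KI cerebellar library, and in 11 for Dlg4, being lost without SCA1 KI cerebellum 1. In the fits that lost a call the adjusted p was 0.0510 to 0.0959. For the other genes it held in all 12. Region and data set cannot be told apart in these differences.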

How the results depend on the processing

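The number of the 9 genes called lower in the cortex was 2. It was 3 with edgeR, with the cortex fitted on its own and with the dependence on length and GC removed, each time with Cbln2, and 3 with DESeq2, with Nrxn2, and it was 1 at an LFC limit of 1. Over the fits leaving out a library it ranged from 1 to 4, with 1 without WT library B, WT library C or SCA1 KI library A and 4 without SCA1 KI library E. In the cerebellum 2 were lower, and 1 with the region fitted on its own; leaving out a library gave 1 to 2, with 1 without WT library 2, WT library 6, SCA1 KI library 1 or SCA1 KI library 3. The number higher in the cerebellum was 0, and 0 to 1 leaving out a library, with Nlgn1 passing without WT library 2. 5 genes were higher in the WT cortex than in the WT cerebellum, and 3 at an LFC limit of 1. The cortical LFC of Nrxn3 passed in 11 of 12 settings (not at a limit of 1).

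Values near 0 that had not passed turned sign. With the trend on length and GC removed they were −0.0067 for Nrxn2 between the WT regions, 0.057 for Nlgn3 and 0.087 for Clstn1 in the cerebellum, 0.0038 for Grid1 in the cortex and −0.054 for Cbln1 between the regions. With median centring they were 0.013 for Nlgn3 and 0.0020 for Clstn1 in the cerebellum. For Cbln1 in the cerebellum edgeR gave −0.015 and DESeq2 −0.014. Leaving out a library gave ranges across 0 in the cortex for Cbln1 (−0.35 to 0.29) and C1ql2 (−0.61 to 0.14), in the cerebellum for Nlgn3 (−0.036 to 0.0048), Cbln1 (−0.17 to 0.099), Cbln3 (−0.00076 to 0.22) and Clstn1 (−0.046 to 0.016), and between the regions for Nlgn2 (−0.066 to 0.084), Nlgn3 (−0.26 to 0.00094), Cbln1 (−0.35 to 0.29) and Cbln4 (−0.24 to 0.45). The cause was not tested. No paired analysis was possible because the columns carry no replicate number of the labels. The standard error of Cbln3 in the cerebellum, shared over all groups, includes the spread of its low cortical counts.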

Other observations

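Ratios of reads of related genes within a library do not depend on its scaling. In the cerebellum there were 0.165 to 0.215 Nlgn1 reads per Nlgn2 read in WT and 0.242 to 0.253 in SCA1 KI libraries, without overlap, and 3.32 to 3.44 against 2.89 to 3.00 Nlgn2 reads per Nlgn3 read. Nlgn2, the neuroligin of inhibitory synapses, was thus lower relative to both other neuroligins in the SCA1 KI cerebellum, although none of the LFC passed. The ratios were not corrected for transcript length or GC content. With that dependence removed, the cerebellar LFC of Nlgn2 shrank from −0.22 to −0.10, and that of Nlgn3 was 0.057. In the cortex both ratios overlapped between the genotypes, and there were 0.276 to 0.312 Nlgn1 reads per Nlgn2 read in WT and 0.291 to 0.327 in SCA1 KI libraries. Cbln3 reads per Cbln1 read were 2.19 to 2.35 in the WT and 2.43 to 2.62 in the SCA1 KI cerebellum, also without overlap. Cbln2 reads per Cbln4 read had a mean of 1.75 in the WT cerebellum and 1.77 in the WT cortex, and were 0.135 to 0.373 in the SCA1 KI cerebellum, below every WT cerebellar library. These ratios were chosen with the values of the genes in view and were given no test.

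Among the 9 genes themselves, with the mean of each region subtracted, Nrxn2 and Nrxn3 varied most alike over the 12 libraries (Pearson's r = 0.913), followed by Cbln2 and Cbln4 (r = 0.819), while Cbln1 and Cbln3 had r = 0.0598. The libraries share region and genotype, so that these values are a description.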
